A study of Mus musculus with 6 samples.

Results

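The cadherins and protocadherins of the mouse hippocampus were examined in RNA that came down with tagged microglial ribosomes and in RNA of the whole tissue. The genes were all protein-coding genes in the deposited table whose symbol begins with Cdh followed by a number or with Pcdh, leaving out the endothelial cadherin Cdh5. This gave 84 of 15388 genes, of which 30 lie scattered over the genome and 54 belong to the alpha, beta and gamma protocadherin clusters on chromosome 18. The annotation used here (GENCODE M21) holds 91 protein-coding genes that match the rule, and the 7 that the table did not list (Cdh16, Cdh17, Cdh26, Pcdh12, Pcdhb1, Pcdhb2 and a second entry for Pcdha11) were not analysed here.

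The libraries were made by translating ribosome affinity purification followed by RNA sequencing (TRAP-RNAseq) from the hippocampus of Tam-induced mice of the genotype Cx3cr1-cre/ERT2+; NuTRAP+. In these animals a tamoxifen-inducible Cre recombinase is driven by the promoter of Cx3cr1, a chemokine receptor of microglia, and recombination switches on the NuTRAP reporter, which puts an EGFP-tagged ribosomal protein on the ribosomes of the recombined cell. Cx3cr1 is also active in macrophages at the borders of the brain, so those cells can carry the tag as well. Animals were about 3 months old and of both sexes per the methods of the study, and tamoxifen was injected daily for 5 days. The comparison is between 2 fractions of the same tissue: Input, the cleared homogenate, and Positive, the RNA that came down on anti-GFP beads. Animals 201, 207 and 208 each gave 1 library per fraction, so n = 3 per fraction throughout, and all animals carried the same alleles and had the same treatment. The question is which of these adhesion genes were enriched in, or depleted from, the Positive fraction relative to Input.

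Cadherins are calcium-dependent adhesion proteins that bind the same or a related cadherin on the neighbouring cell, and classical cadherins anchor to the actin cytoskeleton through catenins. Protocadherins share the extracellular cadherin repeats but have other cytoplasmic tails and signal through kinases and actin regulators. The clustered protocadherins give each neuron a barcode of isoforms through the choice of one of many promoters, and in brain they are known for self-avoidance of dendrites, synapse formation and neuron survival.

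Depth ranged from 14879734 to 17757918 reads per library. Cx3cr1 itself was at 304 ± 24.2 scaled reads (SD) in Input and 8316 ± 1475 in Positive, where scaled reads are the deposited counts divided by a size factor per library. All 10 microglia markers were higher in Positive, with a median log2 fold change of 4.66. All 10 endothelial markers were higher too, at a median of 1.94, and their median per animal was 2.20, 2.01 and 1.14 in animals 201, 207 and 208. Neuron markers stayed near the Input level, with a median of 0.06 (3 of 10 called higher), and astrocyte markers had a median of -0.33 (4 called lower and 1 higher). Oligodendrocyte markers fell most, with a median of -2.58 (10 of 10 lower), then oligodendrocyte precursor markers at -1.76 (9 of 10 lower) and choroid plexus and ependymal markers at -1.60 (7 of 10 lower). Among the first-listed marker of each type, the neuronal Snap25 was at 0.21 and the astrocytic Gfap at -0.41. Mog of oligodendrocytes was at -3.00, Pdgfra of their precursors at -1.67 and the choroid plexus gene Ttr at -2.21. The endothelial Cldn5 was at 1.70, the mural Pdgfrb at -0.29 and the fibroblast gene Col1a1 at -0.69. Both fractions came from the same tissue, so these values describe how RNA was divided between them and not numbers of cells. Positive also held RNA of other cell types, as the neuron and astrocyte markers show.

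Most of the family hardly moved between the fractions. Of the 84 genes, 83 passed the filter on low values, and 16 of these were called, that is, had an adjusted p below 0.05 in edgeR's quasi-likelihood test, 6 higher and 10 lower in Positive. The lower ones include Cdh1, which reached 20 raw reads in every library of Input only, so a lower value was built into its listing. Over all 15344 genes tested, 46% were called, 24% higher and 22% lower, so the share of the family, 19.3%, was below that of all genes. The median log2 fold change was -0.07 for the family and -0.01 for all genes, and 75.9% of the family lay within 1.25-fold of Input, against 51.9% of all genes. Family members were also read less deeply than the average gene, with a median of 174 scaled reads against 412 and a median standard error of 0.17 against 0.13 on the log2 scale. Most calls were among the scattered genes: 12 of the 29 scattered genes tested were called, 3 higher and 9 lower, against 4 of the 54 clustered genes, 3 higher and 1 lower. These shares were 41.4% and 7.41%, so the scattered genes were not called more often than all genes (46%). With total count scaling in place of median-of-ratios scaling the split became 4 higher and 15 lower, and over all genes the share of calls that were higher went from 52.1% to 41.6%. The median of all genes moved from -0.01 to -0.09 with that scaling, so values just above 0, such as the medians of neuron markers and of the clustered genes, fall below 0 there. A total of 7 members were called in each of the 6 fits that left out 1 library: Cdh23, Pcdh18, Pcdhgb1 and Pcdhgb2, higher, and Pcdh15, Pcdh7 and Cdh19, lower. Each such fit called 36.11 to 47.35% of all genes, and the share of all genes called in all 6 was not counted.

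Cdh23 stood apart from the other 83 genes. It encodes cadherin 23, an atypical cadherin best known as the upper part of the tip link of inner ear hair cells, and lies on the minus strand of chromosome 10 from 60302748 to 60696490 (mm10, ENSMUSG00000012819). Scaled reads of Cdh23 were 61.3, 42.3 and 42.0 in the Input libraries of animals 201, 207 and 208, and 254, 362 and 216 in their Positive libraries. Each Positive library was above all 3 Input libraries, and the fractions did not overlap. The log2 fold change was 2.52 ± 0.23 (SE), a 5.72-fold enrichment, with an adjusted p of 1.77e-06. Per animal the log2 ratio was 2.03, 3.07 and 2.34, beside medians of 4.63, 4.88 and 4.40 for the microglia markers and 2.20, 2.01 and 1.14 for the endothelial markers in animals 201, 207 and 208. Without any 1 library the log2 fold change stayed between 2.28 and 2.72. Per kilobase of exon, Cdh23 had the lowest Input level of the 30 scattered genes, 2.86 scaled reads, and 16.4 in Positive. The parts that microglial and endothelial RNA have in this enrichment were not tested.

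Pcdh18 was the other scattered gene past 1.5-fold in the upward direction. It is a delta-2 protocadherin that binds the reelin adaptor Dab1 (ENSMUSG00000037892, minus strand of chromosome 3 from 49743296 to 49757325). Scaled reads were 38.8, 32.0 and 29.4 in Input and 67.7, 59.5 and 58.1 in Positive, again with no overlap. The log2 fold change was 0.89 ± 0.24 with an adjusted p of 0.0084, and the ratios per animal (0.79, 0.88 and 0.96) were close to one another. Its level was low in both fractions, at 6.22 and 11.5 scaled reads per kilobase of exon. All 10 microglia markers (median 4.66) and all 10 endothelial markers (median 1.94) were also higher in Positive. Of the 10 mural markers, 1 was higher and 9 were not called, with a median of -0.24. The part of these cell types in the value for Pcdh18 was not tested.

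The promoters of these genes are shown because they are the scattered genes that were enriched past 1.5-fold. Both windows hold 250 bases before and 50 bases after the gene start in RefSeq (GRCm38.p6, the assembly behind mm10) and are written on the strand of the gene. Capitals mark the PU-box core GAGGAA or its complement TTCCTC, the letters recognised by PU.1, the transcription factor that shapes microglial identity. The motif was chosen after the enrichment of Cdh23 was known. The window of Cdh23 is chr10:60696441-60696740 and that of Pcdh18 is chr3:49757267-49757566, both on the minus strand.
Cdh23: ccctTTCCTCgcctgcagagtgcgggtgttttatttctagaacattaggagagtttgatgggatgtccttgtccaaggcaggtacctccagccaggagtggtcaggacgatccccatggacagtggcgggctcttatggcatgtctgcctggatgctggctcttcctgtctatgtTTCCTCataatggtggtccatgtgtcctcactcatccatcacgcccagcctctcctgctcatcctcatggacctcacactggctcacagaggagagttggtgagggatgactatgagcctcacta
Pcdh18: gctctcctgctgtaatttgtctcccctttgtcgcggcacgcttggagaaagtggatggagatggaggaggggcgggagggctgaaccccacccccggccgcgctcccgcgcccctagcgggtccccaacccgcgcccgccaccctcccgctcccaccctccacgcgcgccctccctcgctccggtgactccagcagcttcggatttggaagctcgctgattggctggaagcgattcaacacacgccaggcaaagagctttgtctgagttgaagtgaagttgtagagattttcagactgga

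The Cdh23 window held 2 matches, both as TTCCTC on the strand shown, and the Pcdh18 window held 0. Among 32851 RefSeq promoter windows of the same length, 28.3% held at least 1 match on either strand and 4.82% held 2 or more. The windows also differed in base composition, with 5 CG dinucleotides and 54% GC for Cdh23 and 23 CG dinucleotides and 63% GC for Pcdh18, where the median of all windows was 7 CG and 21.5% had 23 or more. A match describes letters in a window and not binding.

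**Figure D1:**
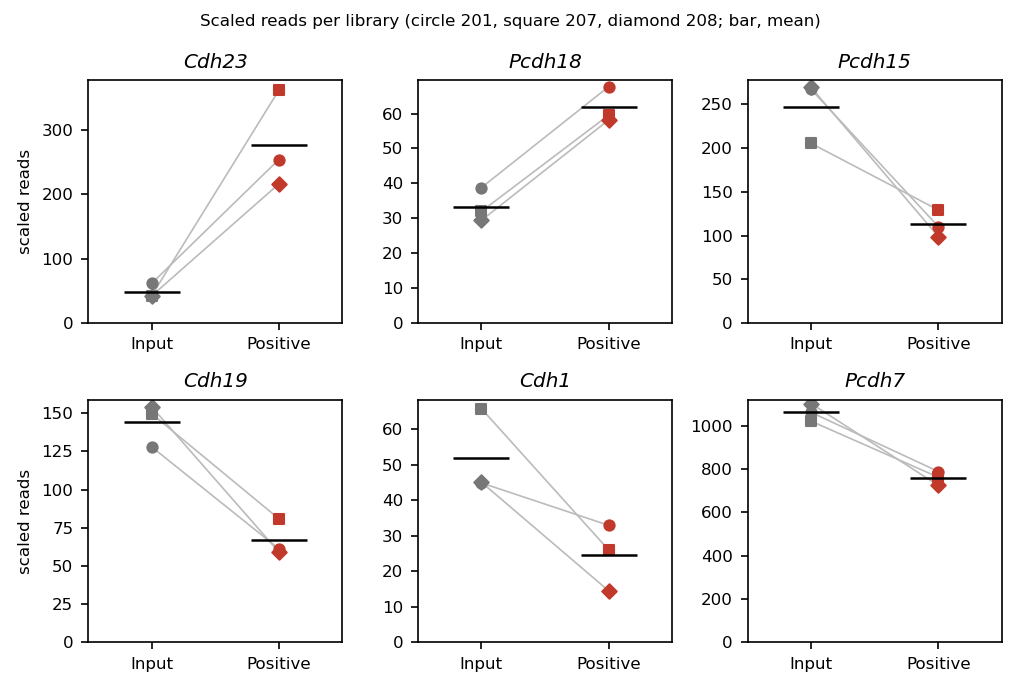
Scaled reads (y axis, linear, from 0) of 6 cadherin and protocadherin genes in the Input (grey) and Positive (red) library of each animal, with lines joining libraries of 1 animal and bars at the mean of 3 animals. Cdh23 and Pcdh18 rise in each animal, while Pcdh15, Cdh19, Cdh1 and Pcdh7 fall in each, and the fractions overlap for none of the 6. All 6 are called genes, and the share of all genes without overlap was not counted. Cdh1 reached 20 raw reads in every library of Input only, so its fall was built into its listing.

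Pcdh15 was the most depleted member by the test. It encodes protocadherin 15, the lower part of the same hair cell tip link and the binding partner of cadherin 23, so the pair moved in opposite directions here (ENSMUSG00000052613, plus strand of chromosome 10 from 73099342 to 74649737). Scaled reads of Pcdh15 were 267, 206 and 270 in Input and 110, 129 and 98.8 in Positive. Every Positive library was below every Input library, and the level in Positive was 45.7% of that in Input. The log2 fold change was -1.13 ± 0.17 with an adjusted p of 0.000135, and the ratios per animal were -1.27, -0.67 and -1.44.

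Cdh19, a type II cadherin known from Schwann cells and the oligodendrocyte lineage, fell by a like amount (ENSMUSG00000047216, minus strand of chromosome 1 from 110888326 to 110977584). Its scaled reads were 128, 150 and 154 in Input and 61.3, 80.9 and 59.2 in Positive. The fractions did not overlap, and the log2 fold change was -1.09 ± 0.19 with an adjusted p of 0.000547. Markers of oligodendrocytes and their precursors fell in the same libraries: the summed level of the 10 precursor markers went from between 6834 and 7391 scaled reads in Input to between 3377 and 3493 in Positive, and that of the 10 oligodendrocyte markers from between 54000 and 61490 to between 12290 and 16180. The part of these cells in the values for Pcdh15 and Cdh19 was not tested.

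Cdh1, the epithelial E-cadherin, was the third gene past 2-fold in the downward direction (ENSMUSG00000000303, plus strand of chromosome 8 from 106603351 to 106670246). Scaled reads were 44.9, 65.8 and 45.1 in Input and 33.0, 26.0 and 14.5 in Positive, with a log2 fold change of -1.08 ± 0.32 and an adjusted p of 0.0139. Without the Input library of animal 207, the highest of the 3, the log2 fold change of Cdh1 was -0.87 and the adjusted p 0.0754. Its neighbour Cdh3, the placental P-cadherin, had 24.5, 18.8 and 21.0 scaled reads in Input and 6.18, 7.44 and 8.31 in Positive. It failed the filter and was not tested, although it was called lower when no filter was used. Cdh1 and Cdh3 were the only members that reached 20 raw reads in every library of Input and not of Positive, so they entered the table through the fraction in which they are higher, and a difference in that direction was built into their listing. The 10 choroid plexus and ependymal markers, from epithelial cells of the ventricles, summed to between 28340 and 38040 scaled reads in Input and between 7045 and 8774 in Positive, and 5 of 9 meningeal fibroblast markers were lower. Their part in the levels of Cdh1 and Cdh3 was not tested.

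The delta-1 protocadherins, whose tails carry a motif that binds protein phosphatase 1, had 3 of 4 genes called lower, against 22% of all genes, and the other gene, Pcdh11x, was not called. The call of Pcdh7 held in all 6 fits without 1 library, that of Pcdh1 in 4 and that of Pcdh9 in 1. Pcdh7 changed most clearly, with 1062, 1021 and 1103 scaled reads in Input and 789, 763 and 725 in Positive. The fractions were well apart, and the log2 fold change was -0.49 ± 0.08 with an adjusted p of 0.000371. Pcdh1, the most highly read scattered gene, had 5661, 6339 and 6157 scaled reads in Input and 4753, 4619 and 5373 in Positive, a log2 fold change of -0.30 ± 0.09 with an adjusted p of 0.012. Again no Positive library reached the lowest Input library. Pcdh9, a protocadherin of cortical and hippocampal neurons, had 1721, 1699 and 1636 scaled reads in Input and 1418, 1369 and 1535 in Positive, a log2 fold change of -0.23 ± 0.08 with an adjusted p of 0.0284. Pcdh11x had 113, 97.7 and 105 scaled reads in Input and 63.9, 81.9 and 80.0 in Positive and missed the threshold with an adjusted p of 0.0544. The call of Pcdh1 was lost without the Input library of animal 207 (log2 fold change -0.27, adjusted p 0.0641) or 208 (-0.29, 0.0574). That of Pcdh9 was held only when the Positive library of animal 208 was the one left out, with adjusted p between 0.0641 and 0.0998 otherwise.

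The delta-2 protocadherins, which recruit the WAVE complex of actin regulators, did not move in 1 direction. Beside Pcdh18, Pcdh8 was higher: this gene, also known as arcadlin, is induced by neuronal activity and drives N-cadherin into the cell. Its scaled reads were 1105, 1207 and 1146 in Input and 1292, 1312 and 1586 in Positive, and the highest value was in the Positive library of animal 208. The log2 fold change was 0.28 ± 0.09 with an adjusted p of 0.028. The call was lost without that library (0.18, adjusted p 0.0816), without the Input library of animal 201 (0.25, 0.0922) or 208 (0.27, 0.0845), and with total count scaling (0.20, 0.0932). Pcdh10, which takes part in activity-dependent synapse elimination, was lower, with 1633, 1560 and 1677 scaled reads in Input and 1314, 1280 and 1425 in Positive. The fractions of Pcdh10 did not overlap, and the log2 fold change was -0.28 ± 0.08 with an adjusted p of 0.011, or -0.25 with 0.0605 without the Input library of animal 208. Pcdh17, a protocadherin of presynaptic clusters, and Pcdh19, known for its mutations in an X-linked epilepsy, were not called. Their log2 fold changes were -0.16 (95% interval -0.34 to 0.01) and -0.18 (-0.44 to 0.09), and each was called lower in an alternative, Pcdh17 with total count scaling (adjusted p 0.0244) and Pcdh19 without the Positive library of animal 208 (adjusted p 0.0162).

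Among the 12 type II cadherins, 3 were called, all lower, and the median log2 fold change was -0.15. This share, 25%, was near the 22% of all genes called lower. Beside Cdh19 these were Cdh7 and Cdh22. Cdh7, a cadherin of the developing nervous system, had 119, 105 and 75.4 scaled reads in Input and 76.9, 58.2 and 59.2 in Positive. The lowest Input library was below the highest Positive library, and the log2 fold change was -0.62 ± 0.23 with an adjusted p of 0.0394. Cdh22, a brain cadherin, had 509, 425 and 432 in Input and 379, 282 and 394 in Positive, a log2 fold change of -0.37 ± 0.14 with an adjusted p of 0.0437. Each was called in 2 of the 6 fits without 1 library: Cdh7 lost its call without the Input library of animal 201 or 207 or the Positive library of 207 or 208 (adjusted p 0.0705 to 0.15), and Cdh22 without any Input library or the Positive library of 207 (0.0624 to 0.174). Cdh11, known from mesenchymal cells and synapses, and Cdh8, a synaptic cadherin, were the most highly read members of the type that were not called, with log2 fold changes of -0.16 (95% interval -0.37 to 0.05) and 0.19 (-0.03 to 0.41).

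The most abundant classical cadherin was N-cadherin (Cdh2), the type I cadherin of synapses and of the neural stem cell niche. Scaled reads of Cdh2 were 1994, 1918 and 1883 in Input and 1688, 1645 and 1842 in Positive. All Positive values were below all Input values, but the difference was small, at -0.16 on the log2 scale (95% interval -0.33 to 0.00), with an adjusted p of 0.0966. It was called lower with total count scaling (-0.24, adjusted p 0.0196), with a filter at 100 scaled reads (-0.19, 0.0479) and without the Positive library of animal 208 (-0.21, 0.0277). Pcdh20 was level, with a log2 fold change of -0.02 (95% interval -0.29 to 0.24). With the replicate number as a block, which pairs the fractions of each animal, Cdh13, the GPI-anchored T-cadherin, and Cdh6, a type II cadherin of kidney and brain, were called lower as well (adjusted p 0.0435 and 0.0378, against 0.053 and 0.0561 without the block), and all 16 calls of the unpaired fit were kept.

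Levels of different genes can be set side by side only per length. Per kilobase of exon, the scattered genes with the highest Input levels were Pcdh1 at 688 scaled reads, Pcdh20 at 274, Pcdh8 at 254, Pcdh9 at 248 and Cdh2 at 239. In Positive the same genes stood at 559, 269, 308, 212 and 214. Cdh23 went from the last place of 30 in Input to a Positive level of 16.4, close to that of Cdh19 (15.7) and Cdh6 (15.8).

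**Figure D2:**
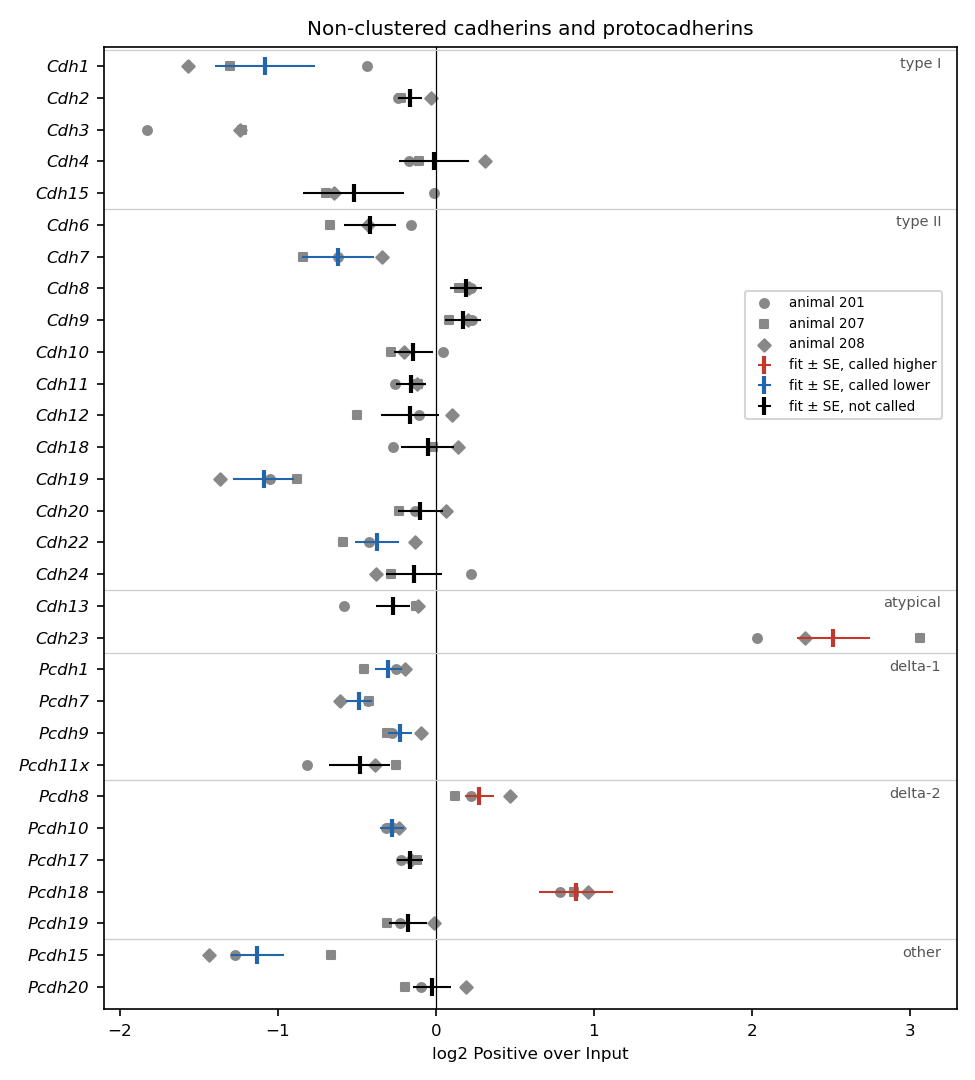
Log2 Positive over Input (x axis) of the 30 scattered cadherins and protocadherins by family, with 1 grey symbol per animal and the fitted log2 fold change ± SE as a bar, red for called higher, blue for called lower and black for not called. Cdh3 has no bar because it was not tested. Cdh23 lies alone at 2.52. Of the 29 fitted values, 24 are below 0, against 7847 of all 15344 genes tested, and most of the 29 are within 0.5 of 0.

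Added up, the 30 scattered genes had 22777, 23863 and 23757 scaled reads in Input and 19831, 20123 and 22444 in Positive. Every Positive sum was below every Input sum, with a log2 fold change of -0.18 ± 0.09 (95% interval -0.37 to 0.02) and an adjusted p of 0.125. The sum passed the threshold with total count scaling (-0.25, adjusted p 0.0313) and without the Positive library of animal 208 (-0.23, adjusted p 0.0103). Pcdh1 alone made up the largest share of it, so the sum mainly follows the most abundant genes.

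For the clustered genes the counting limits what a single row can say. Transcripts of the alpha cluster, and likewise those of the gamma cluster, join their own first exon to last exons that all genes of the cluster share. By the annotation, overlap with exons of any other gene of the cluster made up 38.0 to 54.9% of the exon length of alpha genes (median 53.5%). It made up 27.8 to 66.8% of that of gamma genes (median 44.6%), but at most 9.67% for beta genes, which have no common exons. Overlap with a single neighbour is counted too, so these shares can exceed those of the exons common to all genes of a cluster. Values that are not whole numbers were the rule in the table: over all genes, 17.4 to 23.1% of a library's values were whole (within 1e-06), as were 62 of 180 values of scattered genes, 64 of 120 of beta genes, 0 of 78 of alpha genes and 0 of 126 of gamma genes. How reads were divided among genes is not given in the sources used here. A value for 1 alpha or gamma gene can hold reads from exons it shares with its neighbours, and its difference between fractions is uncertain. Many beta values were not whole either, and Pcdhb21 and Pcdhb22 share part of their exons.

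The alpha cluster was level between the fractions. Neuron markers were near the Input level too (median 0.06), and their part in the values of the clusters was not tested. Its 13 genes summed to 2129, 2423 and 2299 scaled reads in Input and 1958, 2093 and 2646 in Positive, with a log2 fold change of -0.03 ± 0.11 (95% interval -0.27 to 0.20; adjusted p 0.817). Animals 201 and 207 had lower sums in Positive and animal 208 a higher one. None of the 13 genes was called by edgeR (0 at an unadjusted p below 0.05, and 0 by DESeq2), against 46% of all genes. All 13 fitted values were within 1.25-fold. Pcdhac2, a C-type gene that spaces serotonergic axons, was the most highly read, with 461, 461 and 449 scaled reads in Input and 380, 496 and 618 in Positive. The spread among its Positive libraries was wider than the difference between fractions (log2 fold change 0.12, adjusted p 0.521). Pcdhac1, the other C-type gene, was at -0.15 (adjusted p 0.475), and the next most highly read genes, Pcdha12 and Pcdha11, were both at -0.11.

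The beta cluster was level as well. Its 20 genes summed to 1812, 2125 and 2027 scaled reads in Input and 1679, 1898 and 2288 in Positive, with a log2 fold change of -0.03 ± 0.11 (95% interval -0.26 to 0.21; adjusted p 0.868). None of the 20 was called by edgeR (0 at an unadjusted p below 0.05, and 0 by DESeq2), against 46% of all genes. The fitted values ran from -0.28 to 0.40. Pcdhb17 and Pcdhb22, which had the most reads, were at -0.12 (adjusted p 0.511) and -0.19 (adjusted p 0.273), and Pcdhb9 was at 0.08 (adjusted p 0.781). Mean levels of beta genes were between 33.1 and 244 scaled reads and the median standard error was 0.23 on the log2 scale, the widest of the 3 clusters.

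The gamma cluster had a level sum but unequal parts. Its 21 genes summed to 10367, 9559 and 9878 scaled reads in Input and 9883, 9771 and 10577 in Positive, with a log2 fold change of 0.02 ± 0.08 (95% interval -0.15 to 0.19; adjusted p 0.864), a value that changes sign with total count scaling. Genes of the A subfamily were not called (0 of 12 by edgeR, 0 at an unadjusted p below 0.05 and 0 by DESeq2), against 46% of all genes. Of the 12, 10 had a value above 0, the smallest of which fall below 0 with total count scaling. The 6 B genes all had values above 0, with a median of 0.35, where 7497 of all 15344 genes tested were above 0. Of the 6, 3 were called higher, against 24% of all genes. Added together, the B genes had 1190, 1046 and 1075 scaled reads in Input and 1512, 1535 and 1530 in Positive, so each Positive library was above all Input libraries. The 3 C genes had 4993, 4719 and 5027 in Input and 4509, 3915 and 4513 in Positive. These sums of B and C genes were formed after the values of their genes had been seen and were not tested.

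Pcdhgb2 and Pcdhgb1 carried most of the difference among B genes. Pcdhgb2 had 199, 184 and 108 scaled reads in Input and 283, 348 and 232 in Positive. Its fractions did not overlap, and the log2 fold change was 0.81 ± 0.21 with an adjusted p of 0.00778. Pcdhgb1 had 87.9, 146 and 168 in Input and 207, 223 and 263 in Positive, also without overlap, with a log2 fold change of 0.78 ± 0.21 and an adjusted p of 0.00843. Both held their calls in each fit without 1 library, with adjusted p of at most 0.0418 and 0.0251. Overlap with exons of other gamma genes made up 43.4% of the exon length of Pcdhgb2 and 54.6% of that of Pcdhgb1. The median of gamma genes was 44.6%, so the value of Pcdhgb1 is the less certain of the 2. Pcdhgb6 rose less, from 409, 343 and 373 to 495, 459 and 430 scaled reads (log2 fold change 0.30 ± 0.11, adjusted p 0.046). It was not called with total count scaling (adjusted p 0.125), with DESeq2 (0.0557), with a filter at 100 scaled reads (0.067), or without the Input library of animal 207 or 208 or the Positive library of 201 or 207 (0.0909 to 0.172).

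The C-type gamma genes are expressed by most neurons rather than chosen at random, and Pcdhgc3 is also known from astrocytes and as an inhibitor of Wnt signalling. Pcdhgc3 had 2680, 2049 and 2138 scaled reads in Input and 1998, 1723 and 1690 in Positive. It was the only clustered gene called lower (log2 fold change -0.34 ± 0.11, adjusted p 0.0188), and its share of the gamma reads went from 21.4 to 25.9% in the Input libraries to 16.0 to 20.2% in the Positive libraries. The call was lost without the Input library of animal 201, the highest (-0.22, adjusted p 0.0926), or the Positive library of animal 207 (-0.31, 0.0627). Pcdhgc4, which is needed for the survival of interneurons, had a value of 0.28 (95% interval -0.02 to 0.57, adjusted p 0.113), and Pcdhgc5 one of -0.12 (-0.38 to 0.13, adjusted p 0.404). Pcdhga11, the most highly read A gene, was at 0.11 (adjusted p 0.403). The astrocyte markers summed to between 64040 and 68760 scaled reads in Input and between 60710 and 72770 in Positive. Gene by gene, their median log2 fold change was -0.33, with 4 of 10 called lower, 1 higher and 5 not called. Their part in the value for Pcdhgc3 was not tested.

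**Figure D3:**
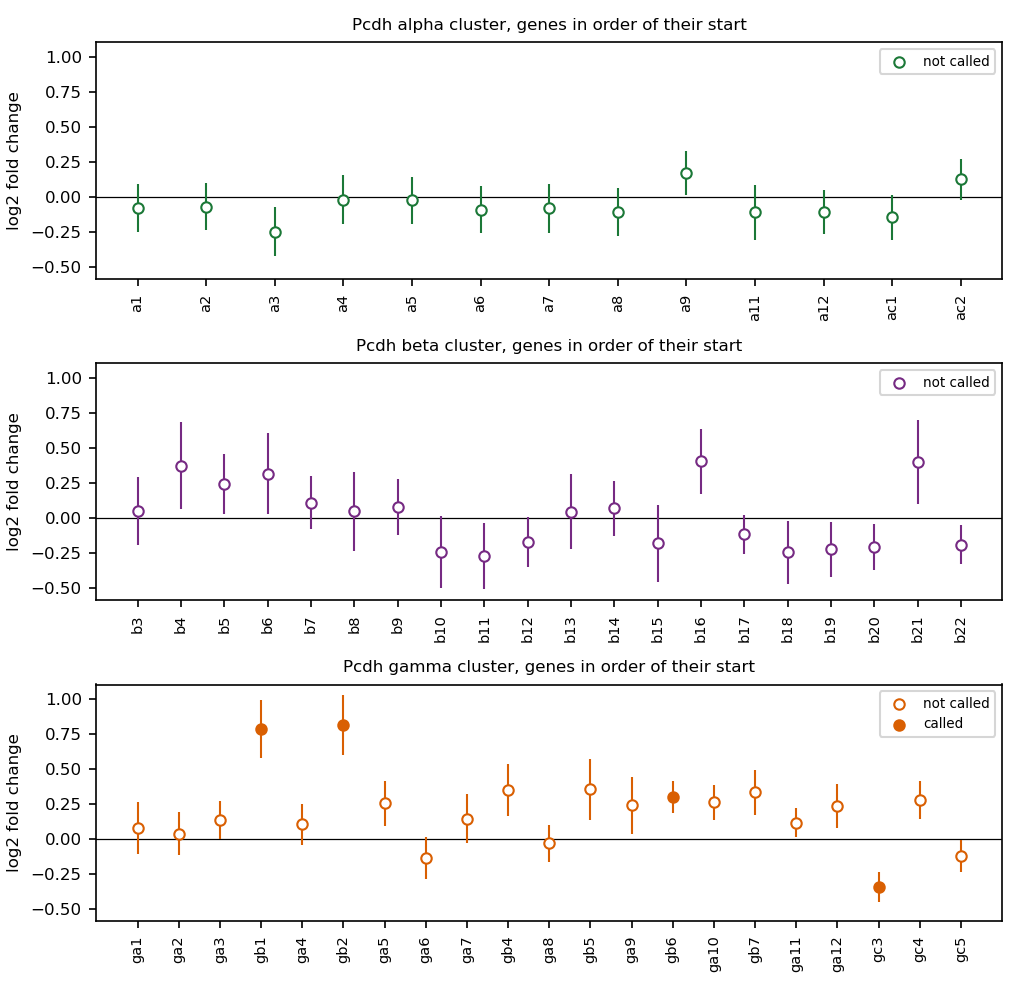
Log2 fold change of Positive over Input ± SE (y axis) of the 54 clustered protocadherins, in 3 panels for the alpha, beta and gamma clusters with genes in the order of their start along the chromosome (prefix Pcdh left out of the names). Filled symbols are called: Pcdhgb1, Pcdhgb2 and Pcdhgb6 above 0 and Pcdhgc3 below it, with no filled symbol in the alpha and beta panels.

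**Figure D4:**
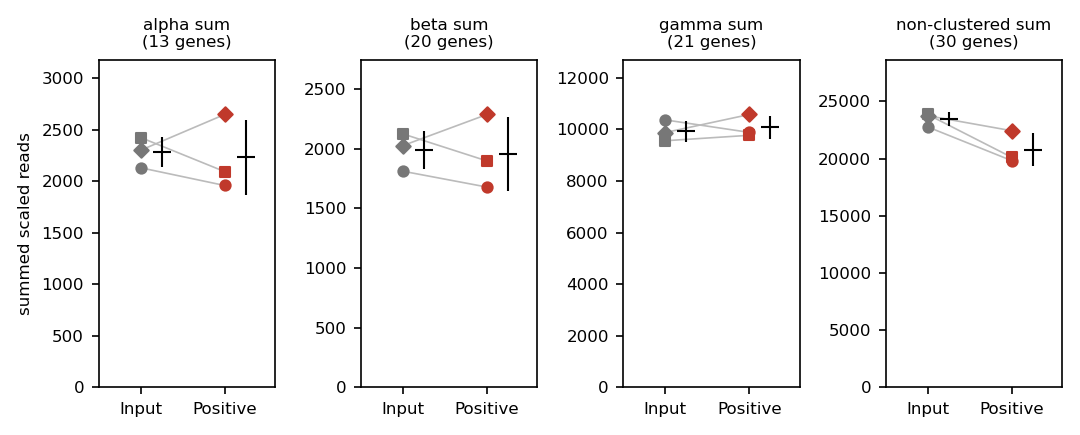
Summed scaled reads (y axis, linear, from 0) of the alpha, beta and gamma clusters and of the 30 scattered genes in each library, with lines joining the Input (grey) and Positive (red) library of 1 animal, circles for 201, squares for 207 and diamonds for 208, and mean ± SD of 3 beside them. The cluster sums overlap between fractions, while the sums of the scattered genes lie between 22777 and 23863 in Input and between 19831 and 22444 in Positive.

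Genes for partners of these proteins were counted from 4 lists, against the 24% of all genes called higher and the 22% called lower. Of 20 catenin and junction adaptor genes tested, 6 were higher and 4 lower, shares near those of all genes, with a median log2 fold change of 0.01. The genes named here had the largest change among those called, or the most reads. The alpha-catenins were not among them. Beta-catenin (Ctnnb1) went from 6664 ± 115 to 9992 ± 275 scaled reads (0.58, adjusted p 4.59e-05). The log2 fold change was 0.78 for p120-catenin (Ctnnd1; adjusted p 0.000158), 0.75 for plakoglobin (Jup, 0.000253) and 1.15 for the nectin Nectin2 (0.000161). The inhibitor of beta-catenin Ctnnbip1 was lower at -0.67 (8.58e-05), as was Pkp4, a member of the p120 family, at -0.43 (0.000334).

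Of 17 other members of the cadherin superfamily tested, 0 were called higher by edgeR (0 at an unadjusted p below 0.05, and 0 by DESeq2) and 6 lower, against 24% and 22% of all genes, with a median of -0.18. The most changed were Dchs2 at -0.69 (adjusted p 0.0436), Celsr1, a planar polarity receptor, at -0.61 (0.00671), the giant cadherin Fat1 at -0.54 (0.00196), and Dchs1, the ligand of Fat4, at -0.36 (0.0293). Dchs2 lost its call with DESeq2 (0.0661) and in 4 of the 6 fits without 1 library, Dchs1 in 5 of the 6. The calsyntenins Clstn1 and Clstn3, the most highly read of the list, were level at 0.05 and -0.01.

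Of 16 genes that act on clustered protocadherin promoters, 10 were higher and 1 lower, against 24% and 22% of all genes, with a median of 0.45, where all genes had -0.01. Among them, the cohesin subunits Smc1a and Rad21 had log2 fold changes of 1.08 (adjusted p 3.94e-07) and 0.61 (2.15e-05), and the cohesin loader Nipbl 0.71 (0.000529). Rest, a repressor of neuronal genes, was at 0.83 (0.00115), and Smchd1, a silencer of the clusters, at 0.62 (0.00106). Of 22 genes for cleavage of cadherins and signalling by protocadherins, 11 were higher and 1 lower, against the same shares of all genes, and the median was 0.31. The sheddases Adam17 and Adam10 were at 1.64 (3.08e-07) and 0.91 (5.92e-06), the protein kinase C substrate Marcks at 1.52 (3.55e-08), and the WAVE complex subunit Cyfip1 at 1.35 (4.02e-07). The kinase Ptk2b, which protocadherins hold in check, was at 0.35 (0.00706), and Cyfip2, the neuronal counterpart of Cyfip1, at 0.20 with an adjusted p of 0.0717. All microglia markers were higher in the same libraries, and their part in the values of these widely expressed genes was not tested.

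**Figure D5:**
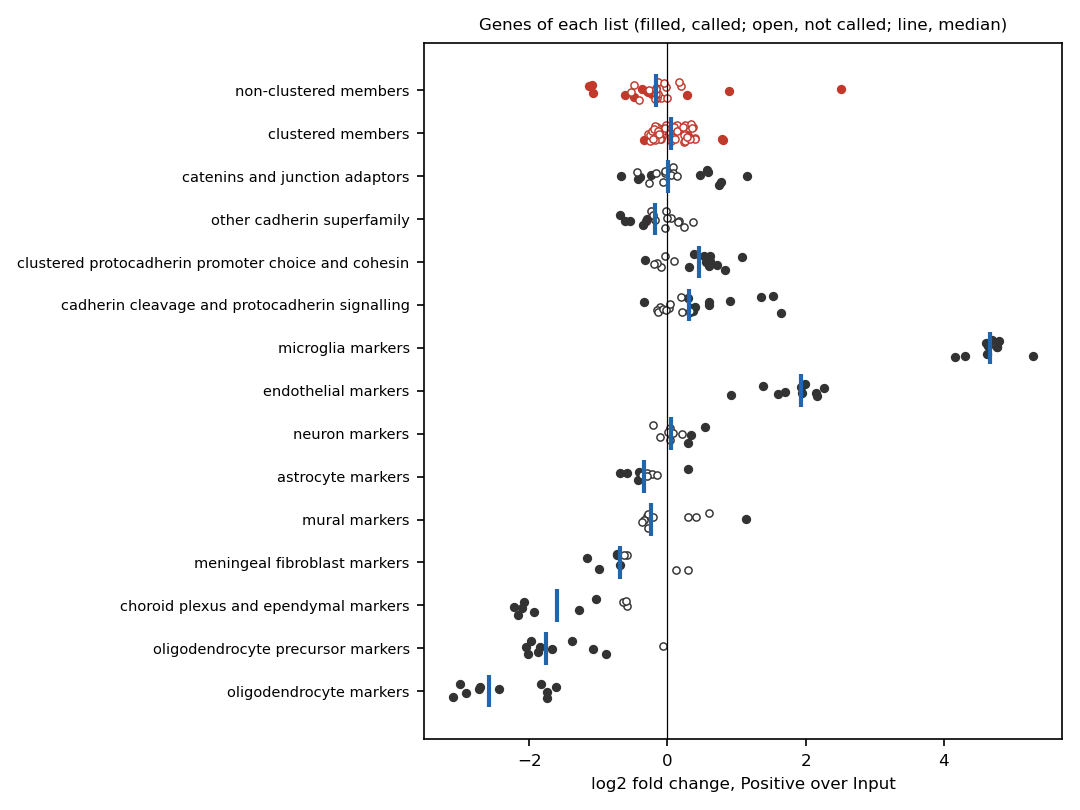
Log2 fold change of Positive over Input (x axis) of each gene in the 2 groups of cadherins and protocadherins (red), in the 4 lists of partner genes and in the 9 cell type marker lists (black), with filled points for called genes, open points for the rest and a blue line at the median of each list. The cadherin and protocadherin medians, -0.16 and 0.05, lie near 0, between the microglia markers at 4.66 and the oligodendrocyte markers at -2.58.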

How the data were processed

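RNA was sequenced from the Input and Positive fractions of the hippocampus of 3 animals, 6 libraries in all, grouped by the fraction given in the labels. The unbound fraction was not analysed here. The authors prepared strand-specific poly(A) libraries, aligned reads to mm10 in Strand NGS against Ensembl genes, and deposited expected counts per gene, limited to genes for which all libraries of 1 fraction or more reached 20 raw reads. Normalized columns on a log2 scale, which per the labels come from DESeq, were deposited beside them and were not used. Libraries held 14879734 to 17757918 reads.

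Rounded counts were tested with edgeR 4.0.16 in R 4.3.3 (quasi-likelihood, median-of-ratios scaling), unpaired as in the study, on the 15344 genes for which all libraries of 1 fraction or more exceeded 20 scaled reads, with Benjamini-Hochberg adjustment over these genes. Standard errors were derived from the F statistic, and ratios per animal used a pseudocount of 1. The replicate numbers are animal numbers and so pair the fractions. Deviations from the fraction means correlated across genes at 0.194, 0.0579 and 0.120 within animals 201, 207 and 208 and at -0.14 to 0.032 between animals. P-values of the unpaired fit rest on the spread between the libraries of a fraction, which come from different animals. They do not use the differences within animals, which only the replicate block does. Replicate libraries differed by more than counting noise, with a mean chi-square per gene between 3.95 and 20.0, highest in pairs with the Positive library of animal 208.

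On simulated data of 15340 genes with 200 changed, the test recovered 87.4% at a log2 change of 1 and 100% at 2, and 6.9% of its calls were genes left unchanged. The simulation changed far fewer genes than the 46% called in the data, held no smaller change and drew libraries without pairing. Its rates therefore need not hold for the data, nor for changes below 1. Alternatives were other scaling (TMM, total count), no filter, a filter at 100 scaled reads, DESeq2 1.42.0, the replicate block, halved counts in case both mates of a pair were counted, and leaving out each library. Exon lengths came from GENCODE M21, and promoters from RefSeq.

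The members, the gene lists and the marker lists were chosen with earlier results of these data known. The text names every called scattered gene, the 6 most highly read uncalled ones, the C-type genes, and per cluster up to 3 called genes with the largest change and the 3 most highly read. It also names per partner list the 4 called genes with the largest change and the 2 most highly read, and the first marker of each cell type. Cdh3, Cdh6, Cdh13 and Pcdh11x were named after their values were seen.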

Additional observations from a re-analysis of the deposited data

How the results depend on the processing

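The numbers of cadherins and protocadherins called, 16 in all with 6 higher and 10 lower, stayed within 1.5 times under TMM scaling, total count scaling, no filter, a filter at 100 scaled reads, DESeq2, the replicate block (18 called) and halved counts (17 called). Leaving out 1 library gave 10 to 20 calls, 4 to 6 higher and 6 to 14 lower, the fewest in all when Input 208 was left out and the most when Positive 208 was. Besides the calls of Cdh6 and Cdh13, the block added 2 lower catenin and junction genes (6 in all), 1 lower gene of the cadherin superfamily (7 in all) and 1 higher gene of cleavage and signalling (12 in all), and it changed no other call among the family and these lists. Cluster sums were too close to 0 to keep a sign: without 1 library the alpha sum ran from -0.173 to 0.0507, the beta sum from -0.152 to 0.0720 and the gamma sum from -0.0158 to 0.0517, and the gamma sum was -0.0567 with total count scaling and -0.0077 with the filter at 100. The sum of scattered genes was -0.25 with total count scaling and -0.23 to -0.14 without 1 library. Lower genes of the cadherin superfamily numbered 3 to 5 without 1 library, against 6, with the fewest without the Input library of animal 201 or 207 or the Positive library of 207. Lower genes of promoter choice numbered 3 with total count scaling, 2 with the filter at 100 and 1 to 2 without 1 library, against 1. Lower genes of cleavage and signalling numbered 2 with total count scaling and 0 to 2 without 1 library, against 1. Genes near 0 changed sign without 1 library: Pcdh20 (-0.172 to 0.0875), Pcdhac2 (-0.0579 to 0.282), Pcdha12 (-0.226 to 0.0184), Pcdha11 (-0.36 to 0.0072), Pcdhb9 (-0.11 to 0.20), Clstn1 (-0.0020 to 0.10) and Clstn3 (-0.0338 to 0.0322), and with total count scaling Pcdhb9 was -0.00079 and Clstn1 -0.0313. The cause was not tested in any of these.

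Depth limited the beta genes and the rarest scattered genes most, whose standard errors reached 0.32 on the log2 scale. Alpha and gamma genes have common exons, so reads there cannot be assigned to 1 gene with certainty. If both mates of a pair were counted, the number of independent fragments is lower than the number of reads, and halving the counts left all 16 calls in place.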

Other observations

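A gamma gene outside the family as defined here, Pcdhgb8, is annotated as a polymorphic pseudogene and lies in the same cluster. Its raw reads were 24.5, 35.2 and 26.1 in the Input libraries of animals 201, 207 and 208 and 16.1, 6.37 and 14.2 in their Positive libraries. It reached 20 raw reads in every library of Input only, so a lower value in Positive was built into its listing, and its values are given with no comparison. Pcdhgb8 was named after its values were seen.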
